A study of Mus musculus with 8 samples.

Results

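The mitochondrial solute carrier family was followed across spleen cells of leukemic mice with either of 2 forms of the leukemia fusion CBFb-SMMHC. A gene was taken as a member where a probe set of the array carried a single platform symbol made of Slc25a and a number, with Slc25a37 left out, and the brightest probe set on average over the arrays stood for a gene that had several. This gave 43 genes of the 18193 on the array, from 92 probe sets. Of the 43, 35 passed a filter on dim values, under which at least 2 of the 4 animals had to lie above 4.75, the median of all log2 values. The other 8 were Slc25a2, Slc25a18, Slc25a23, Slc25a27, Slc25a31, Slc25a33, Slc25a41 and Slc25a54, which were measured but not tested.

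Mice of the truncated genotype expressed CBFb-SMMHCd179-221 and were sampled as leukemic animals 3 weeks after birth. Mice of the full-length genotype expressed CBFb-SMMHC and were sampled as leukemic animals 2 months after they had received the mutagen ENU. In the fusion, CBFb, the partner of RUNX transcription factors, is linked to part of smooth muscle myosin heavy chain, and the title of the study describes the truncated form as lacking tight RUNX1 binding. The sample labels call the animals of both genotypes chimeras, while the series text describes the full-length ones as knock-in mice. A chimera also holds cells that do not carry the fusion, and their share is not known here. ENU, age and genotype go together and cannot be told apart. Of the 8 arrays, 4 were made per genotype. Animal 1 gave a single array and animal 2 gave the other 3, so the number of animals is 2 in each genotype.

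The arrays did not group as the animal labels say. Array 1 of full-length animal 2 correlated with the array of full-length animal 1 at r = 0.99 over all probe sets, and with arrays 2 and 3 of its own animal at r = 0.95. The same order held in truncated mice, with r = 0.99 between array 1 of animal 2 and the array of animal 1, against r = 0.98 with arrays 2 and 3. These arrays, one from either animal, are called the first arrays below, and arrays 2 and 3 of animal 2 the later arrays. The later full-length arrays correlated with the first full-length arrays at r = 0.95, and with the truncated arrays at r = 0.96 to 0.97. So the arrays did not group by genotype throughout either. The first full-length arrays also stood apart in erythroid genes. The median of 16 erythroid markers was 8.80 and 8.61 in the first and 8.24 and 8.25 in the later truncated arrays, against 10.18 and 10.11 in the first and 8.15 and 8.13 in the later full-length arrays. The median of 5 primary granule markers was between 11.29 and 11.70 in the truncated arrays, against 5.12 and 4.77 in the first and 10.39 and 10.38 in the later full-length arrays. Of the T and NK cell markers, 5 were on the array, with medians of 5.40 to 5.58 in truncated and 5.21 to 5.60 in full-length arrays. The B and plasma cell markers had medians of 5.29 and 4.91 in the first and 7.02 and 7.05 in the later truncated arrays. In full-length arrays these were 4.84 to 4.98, so list medians of lymphocyte markers were near the array median in most arrays. Single markers could depart from them. Jchain lay at 3.56 and 3.32 in the first and 10.85 and 10.81 in the later truncated arrays. Nkg7 lay at 4.63 to 5.42 in the first and 7.88 to 8.40 in the later arrays of both genotypes. In bulk spleen RNA, fewer cells of a type and less RNA per cell cannot be told apart.

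Proteins of the family sit mainly in the inner mitochondrial membrane, where each exchanges or carries particular metabolites between the cytosol and the matrix. They pass ADP, ATP and phosphate for oxidative phosphorylation, move citrate, malate and aspartate for biosynthesis and redox shuttles, and bring in amino acids, cofactors and metals. Developing red cells depend on several of them, since heme synthesis begins and ends inside mitochondria. The adenine nucleotide translocases, which exchange ADP for ATP, are encoded by paralogous genes that differ by tissue, with Slc25a4 prominent in heart and skeletal muscle and Slc25a5 in dividing cells.

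Most carriers differed little between the genotypes, and a few differed by more than 1 log2 unit. The largest difference was that of Slc25a4, which was 9.58-fold higher in truncated animals, while its paralogue Slc25a5 differed by -0.09. The aspartate-glutamate carrier gene Slc25a13 and the carrier gene Slc25a45 were 3.06-fold and 2.52-fold higher. The ornithine carrier gene Slc25a15 was 2.00-fold lower, a difference that was mainly in the first arrays. In limma, 0 of the 35 tested members passed at an adjusted p under 0.05, as 0 of the 11417 genes tested did, which is 0% of them. Under an adjusted p of 0.10 there was 1 member, Slc25a4.

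At an unadjusted p under 0.05, 3 members had a higher value in truncated animals, which is 8.57% of the members tested, against 8.81% of all genes tested. With a lower value there were 2, or 5.71% against 5.29%. The 4 truncated arrays lay above all 4 full-length arrays for 5 members, or 14.3%, against 10.3% of all genes. They lay below them for 3 members, or 8.57%, against 8.74%. These shares were near those of all genes. A difference over 1 in favour of truncated animals was seen for 3 members, or 8.57%, against 6.96% of all genes, and one in favour of full-length animals for 1 member, or 2.86%, against 3.21%. The median difference of the tested members was -0.14, beside -0.01 over all genes, with 10 higher and 25 lower values. Without the first full-length arrays the median was 0.05, with 19 higher and 16 lower values, and 24 of the 35 members kept their sign. Full-length mice are then represented by animal 2 alone, while the first truncated arrays are kept. Between the first arrays of both genotypes the median was -0.08, with 14 higher and 21 lower values. Between the later arrays of both it was -0.10, again with 14 higher and 21 lower values.

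**Figure D1:**
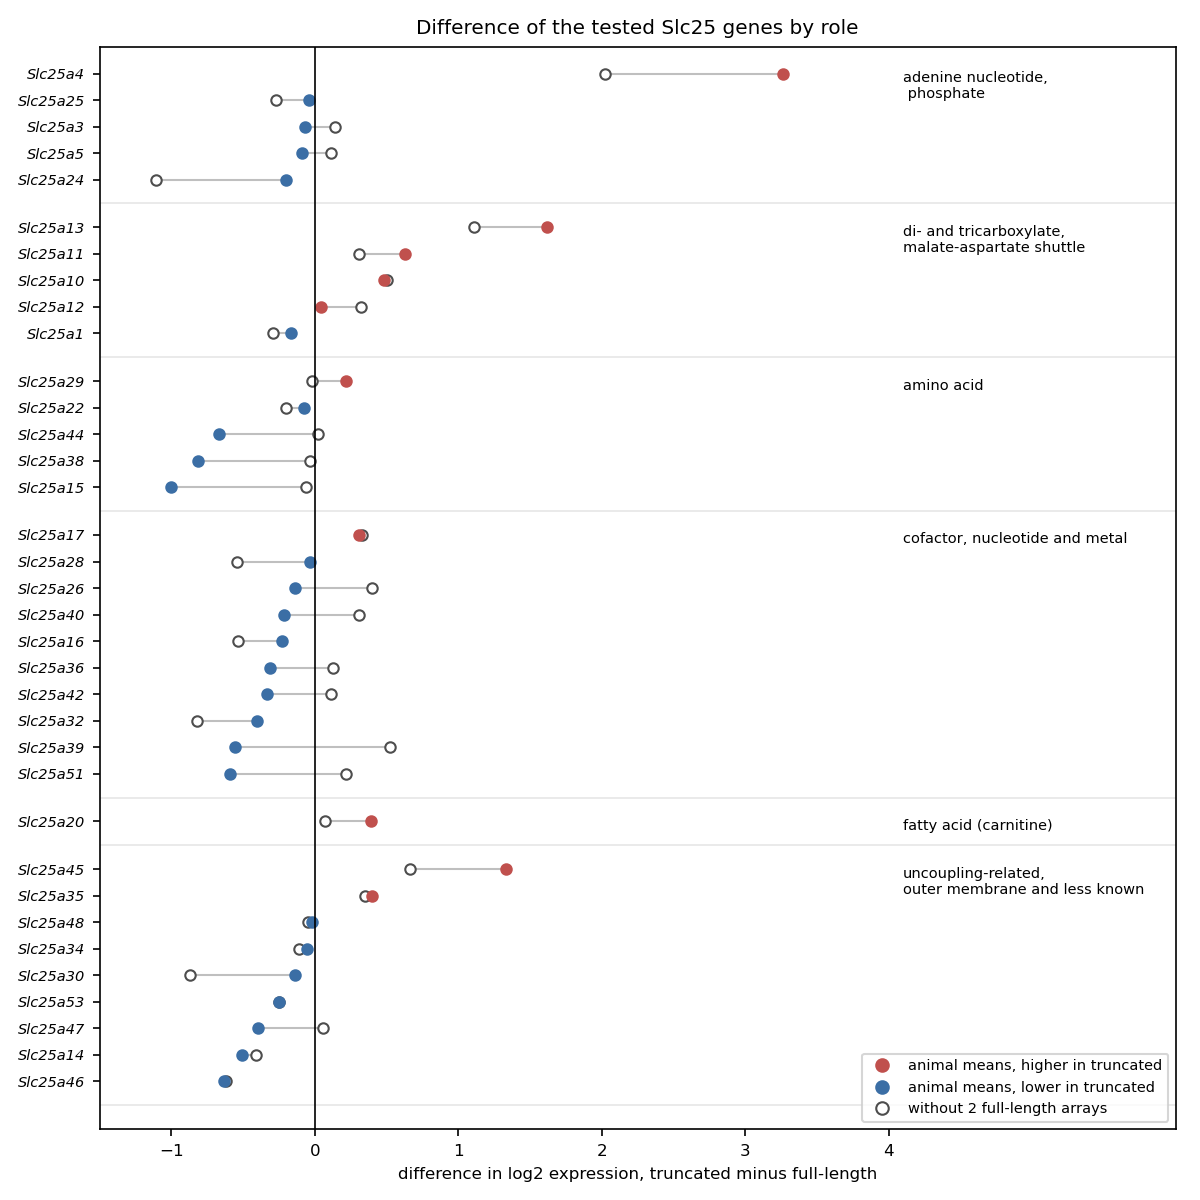
Difference in log2 expression, truncated minus full-length, of the 35 tested Slc25 genes, grouped by role from top to bottom. Filled points are differences of animal means (n = 2 animals each) and open points leave out the first full-length arrays; Slc25a4 stands apart at 3.26 and 2.02, and the amino acid carriers Slc25a38, Slc25a15 and Slc25a44 lie between -0.06 and 0.02 once these arrays are left out.

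The bases upstream of 3 members are shown because 2 of them, Slc25a4 and Slc25a13, had the largest differences and the third, Slc25a5, is the paralogue of Slc25a4 that did not part the genotypes. They are the 250 bases before the annotated start in RefSeq, build GRCm38.p6, read 5′ to 3′ on the gene's strand. They lie at chr8:46211063-46211312 on the minus strand for Slc25a4, at chrX:36795347-36795596 on the plus strand for Slc25a5 and at chr6:6217174-6217423 on the minus strand for Slc25a13. Capitals mark matches to the motifs searched.
Slc25a4: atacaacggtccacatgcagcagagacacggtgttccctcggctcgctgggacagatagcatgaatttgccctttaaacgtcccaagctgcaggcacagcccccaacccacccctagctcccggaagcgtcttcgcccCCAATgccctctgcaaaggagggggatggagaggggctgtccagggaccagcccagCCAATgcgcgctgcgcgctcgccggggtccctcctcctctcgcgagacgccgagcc
Slc25a5: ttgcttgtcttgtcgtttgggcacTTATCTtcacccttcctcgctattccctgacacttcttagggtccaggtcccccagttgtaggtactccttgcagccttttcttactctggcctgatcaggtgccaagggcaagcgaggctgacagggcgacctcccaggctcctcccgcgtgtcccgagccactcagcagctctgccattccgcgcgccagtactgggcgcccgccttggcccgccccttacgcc
Slc25a13: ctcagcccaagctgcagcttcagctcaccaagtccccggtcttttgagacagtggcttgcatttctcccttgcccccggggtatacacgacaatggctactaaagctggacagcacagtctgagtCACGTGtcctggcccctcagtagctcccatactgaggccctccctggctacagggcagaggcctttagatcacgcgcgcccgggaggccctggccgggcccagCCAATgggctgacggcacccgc
The motifs, searched on both strands, were the TATA box (TATAAA), the CCAAT box (CCAAT), the RUNX motif (TGTGGT or TGCGGT), the GATA motif (AGATAA), the E-box (CACGTG) and the NRF1 motif. No 2 of these matches overlapped in the 3 windows. Positions count back from the start, with -1 the last base before it. Slc25a4 held 2 CCAAT boxes, which begin at -112 and -56. Slc25a13 held an E-box from -125 and a CCAAT box from -22, and Slc25a5 held a GATA motif on the opposite strand from -226. These letters are a description of the windows and do not show binding.

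Of the 43 members, 34 matched the RefSeq promoter table, with 43 windows of this length. A CCAAT box stood in 20 of these windows, or 46.51%, against 33.85% of the 32851 windows of all genes. An E-box stood in 8, or 18.6%, against 6.02%. The RUNX motif was found in 4, or 9.3%, against 18.59%, the GATA motif in 2, or 4.65%, against 9.99%, the NRF1 motif in 2, or 4.65%, against 3.74%, and the TATA box in 1, or 2.33%, against 12.37%. The median G and C content was 58.0% in the windows of the members and 52.4% in all windows. Several windows belong to the same gene, and the shares were not tested.

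The carriers of adenine nucleotides and phosphate had 8 genes, of which 5 were tested. Slc25a4 lay at 9.62, 9.68, 8.75 and 8.84 in the truncated arrays (animal 1, then arrays 1, 2 and 3 of animal 2), against 5.35, 5.85, 7.38 and 7.29 in the full-length arrays in the same order. The groups did not overlap, and the gap was wider between the first arrays than between the later ones. The animals averaged 9.36 ± 0.37 in truncated and 6.10 ± 1.05 in full-length mice (log2, SD, n = 2 animals each). The difference was 3.26 with a standard error of 0.53 (limma, adjusted p = 0.0858). It was 4.05 between the first arrays, 1.46 between the later arrays and 2.02 without the first full-length arrays.

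The direction for Slc25a4 held in all 21 alternative settings, with differences of 1.46 to 4.05. Its adjusted p lay between 2.04e-11 and 0.440, and 6 of these settings passed. Among them were leaving out array 2 (3.40, limma adjusted p = 0.0272) or array 3 (3.37, 0.0216) of full-length animal 2, or the whole animal (4.00, 0.0155). Without that animal, full-length mice are 1 animal with 1 array, which is assumed to vary like the truncated animals, so any pass in that setting rests on their spread alone.

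Myeloid marker medians were higher in truncated arrays and, in full-length mice, lower in the first than in the later arrays, as Slc25a4 was. In truncated mice the medians of both granule lists were lower in the first arrays, where Slc25a4 was higher. The monocyte and macrophage median was slightly higher in the first truncated arrays, as Slc25a4 was. The median of 7 secondary granule markers was 10.66 to 11.32 in the truncated arrays, against 6.26 and 6.06 in the first and 8.89 and 8.92 in the later full-length arrays. All 7 were higher in truncated animals without overlap of the arrays, with a median difference of 3.41. The median of 8 monocyte and macrophage markers was 8.43 and 8.60 in the first and 8.30 and 8.29 in the later truncated arrays. It was 6.59 and 6.39 in the first and 7.14 and 7.19 in the later full-length arrays. Of these 8, 6 did not overlap, and their median difference was 1.78 over all 8. Of the 5 primary granule markers, with the array medians given above, 4 did not overlap. The part of these markers in the difference of Slc25a4 was not tested.

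Of the 4 probe sets of Slc25a4, 3 gave differences of 3.26, 3.67 and 3.00, and each of them set all truncated arrays above all full-length arrays. The fourth was dim, with means of 3.07 in truncated and 2.97 in full-length animals, and its difference was 0.10. Slc25a5 lay at 12.08, 12.13, 11.96 and 11.97 in the truncated arrays, against 12.20, 12.38, 11.90 and 11.98 in the full-length arrays. All 8 values overlapped within 0.5 log2 units, and the difference of -0.09 was smaller than its standard error of 0.21 (limma, adjusted p = 0.914). The 8 probe sets of Slc25a5 differed by -0.49 to 0.22, and their sign was not the same. Many of them end in x_at, which can match related sequences.

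**Figure D2:**
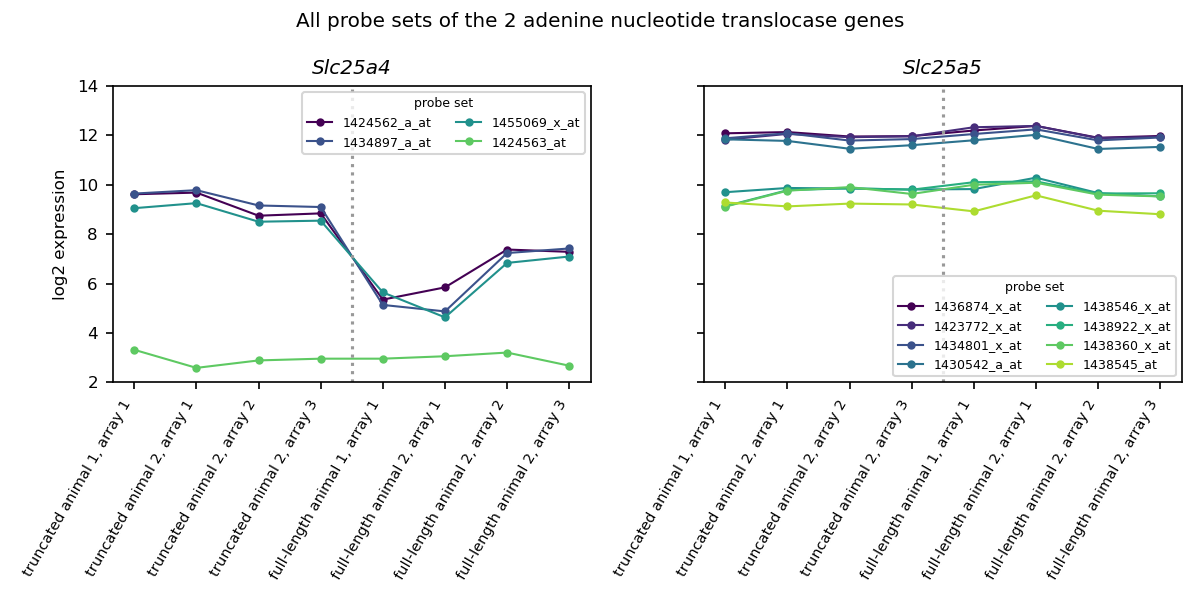
Log2 expression of every probe set of Slc25a4 (left) and Slc25a5 (right) in the 8 arrays, with truncated arrays left and full-length arrays right of the dotted line; lines join the values of a probe set. All but 1 probe set of Slc25a4 lie higher in the truncated arrays, and those of Slc25a5, at different levels, differ by -0.49 to 0.22 between the genotypes.

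The gene of the ATP-magnesium/phosphate carrier Slc25a24 lay at 9.47, 9.67, 10.23 and 10.19 in the truncated arrays, against 9.49, 9.50, 10.92 and 10.81 in the full-length arrays. It was lower in the first than in the later arrays of both genotypes, which overlapped. Its difference was -0.20 (limma, adjusted p = 0.897), and it was 0.08 between the first and -0.65 between the later arrays. Without the first full-length arrays it was -1.11. Slc25a3, the phosphate carrier, differed by -0.07, and Slc25a25, another ATP-magnesium/phosphate carrier, by -0.04. Of the 3 untested genes, Slc25a31, the translocase best known from testis, lay between 2.11 and 2.44 in all arrays, and Slc25a41 between 3.57 and 4.23. Slc25a23 was at 4.21 ± 0.04 in truncated and 3.55 ± 0.27 in full-length animals. Its arrays did not overlap, but the values are dim and were not tested.

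The carriers of di- and tricarboxylates and of the malate-aspartate shuttle had 5 genes on the array, all tested, and 4 had a higher value in truncated animals. Their median difference was 0.48. Slc25a13, or citrin, which exports aspartate from the matrix in exchange for glutamate, lay at 6.58, 6.72, 6.12 and 6.35 in the truncated arrays, against 4.57, 4.75, 5.40 and 5.35 in the full-length arrays. Every truncated array lay above every full-length array. Full-length animal 1, at 4.57, was under the median of 4.75, so a filter that asked all animals to be above it left Slc25a13 out. The means were 6.49 ± 0.13 in truncated and 4.87 ± 0.42 in full-length animals, a difference of 1.62 with a standard error of 0.28 (limma, adjusted p = 0.101). It was 1.98 between the first and 0.86 between the later arrays. With the animal and array number of the labels as a replicate block on 8 arrays, the difference was 1.42 and passed (limma, adjusted p = 0.0404), and Slc25a13 was the 1 member of 35 called in that fit. Of all genes tested, 5.17% were called higher and 3.12% lower in the same fit, so the share of members called was not above that of all genes. Across the 20 alternatives that gave a value for Slc25a13, its difference lay between 0.86 and 1.98, and its adjusted p between 3.03e-07 and 0.489. In limma it passed when array 2 (1.67, adjusted p = 0.0372) or array 3 (1.66, 0.0317) of full-length animal 2 was left out, or all of that animal (1.91, 0.0283), which leaves 1 full-length animal.

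Slc25a12, or aralar, the other aspartate-glutamate carrier, did not part the genotypes, with a difference of 0.04 by its brightest probe set. Its other 2 probe sets gave -0.66 and -0.55 at lower levels, so its sign depends on the probe set. Slc25a11, which exchanges oxoglutarate for malate in the same shuttle, lay at 9.01, 9.33, 9.03 and 9.08 in the truncated arrays, against 8.25, 8.41, 8.68 and 8.86 in the full-length arrays. The groups did not overlap, and the highest full-length array was close to the lowest truncated one. The difference was 0.62 with a standard error of 0.25 (limma, adjusted p = 0.357), and 0.31 without the first full-length arrays.

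Slc25a10, the dicarboxylate carrier, lay at 7.97, 7.79, 7.33 and 7.28 in the truncated arrays, against 7.30, 7.07, 7.24 and 7.20 in the full-length arrays. The first truncated arrays were high and the later ones lay among or just above the full-length values. The difference was 0.48 (limma, adjusted p = 0.517), with 0.69 between the first and 0.09 between the later arrays. The citrate carrier gene Slc25a1 differed by -0.17.

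**Figure D3:**
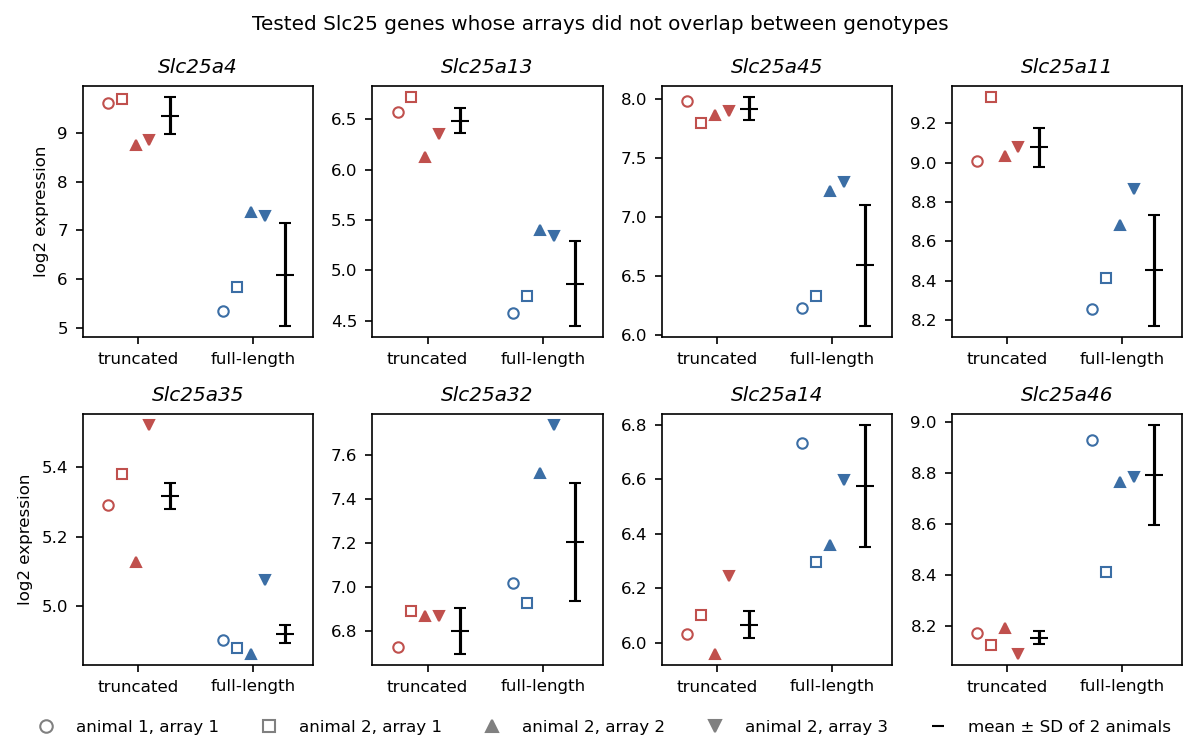
Log2 expression of the 8 tested Slc25 genes whose arrays did not overlap between genotypes, each on its own axis. Points are single arrays (open symbols for the first arrays, filled for the later arrays), and bars are mean ± SD of 2 animals; 5 genes lie higher and 3 lower in the truncated arrays.

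The amino acid carriers had 7 genes, of which 5 were tested, and 4 of these had a lower value in truncated animals. Their median difference was -0.67. Slc25a38, which brings in glycine for heme synthesis, lay at 7.95, 7.86, 8.18 and 8.17 in the truncated arrays, against 9.17, 9.37, 8.02 and 8.07 in the full-length arrays. Only the first full-length arrays were high, and the later ones lay among the truncated values. The difference of -0.82 had a standard error of 0.30 (limma, adjusted p = 0.324). It was -1.36 between the first arrays and 0.13 between the later ones.

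Slc25a15, which carries ornithine for the urea cycle and polyamine supply, lay at 7.12, 7.31, 6.91 and 6.78 in the truncated arrays, against 8.63, 8.23, 7.14 and 7.10 in the full-length arrays. The groups overlapped, with the first full-length arrays high. The difference was -1.0004 with a standard error of 0.41 (limma, adjusted p = 0.376), with -1.22 between the first and -0.28 between the later arrays, and -0.06 without the first full-length arrays. It passed in limma with full-length animal 2 left out (-1.57, adjusted p = 0.0404), where the 1 full-length array that remains is the highest of all. Slc25a44, a carrier of branched-chain amino acids, lay at 7.16, 7.04, 6.65 and 6.69 in the truncated arrays, against 8.02, 7.90, 6.91 and 7.003 in the full-length arrays. By this probe set the first full-length arrays were again high, and in both genotypes the first arrays lay above the later ones. A second probe set lay at 6.09, 7.02, 6.86 and 6.91 in the truncated arrays, against 6.54, 8.05, 7.33 and 7.38 in the full-length arrays. There the array of animal 1 was the lowest in both genotypes. The difference by the brightest probe set was -0.67 (limma, adjusted p = 0.468), with -0.86 between the first and -0.28 between the later arrays. It was 0.02 without the first full-length arrays, a setting that keeps the first truncated ones. With the replicate block it was -0.57 (limma, adjusted p = 0.0917), and with a block for array number 1 against 2 and 3, added after seeing the data, it passed (-0.57, 0.0263).

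The other 2 tested amino acid carriers differed little, with 0.22 for Slc25a29, a carrier of basic amino acids, and -0.08 for the glutamate carrier gene Slc25a22. The glutamate carrier gene Slc25a18 and the ornithine carrier gene Slc25a2 were dim, at 3.34 to 3.73 and 2.89 to 3.13 over all arrays. For Slc25a38, Slc25a15 and Slc25a44, by the brightest probe set of each, the high arrays were those with erythroid marker medians of 10.18 and 10.11. The part of these markers was not tested.

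**Figure D4:**
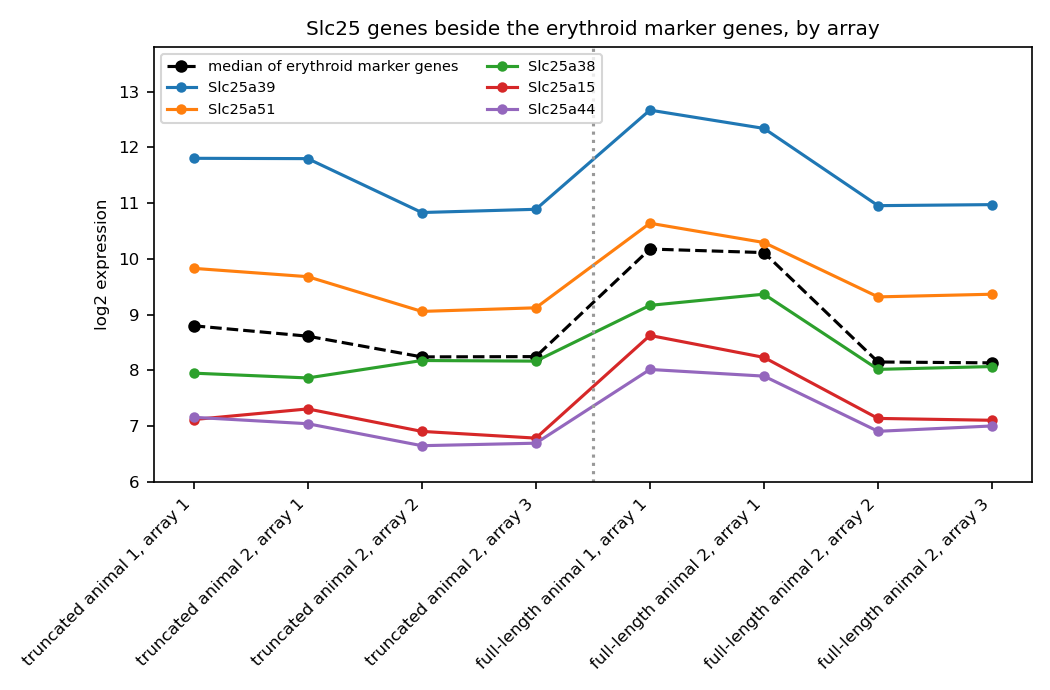
Log2 expression of Slc25a39, Slc25a51, Slc25a38, Slc25a15 and Slc25a44 (solid lines, brightest probe set of each) and the median of 16 erythroid marker genes (dashed line) in the 8 arrays, truncated left and full-length right of the dotted line. All 6 lines reach their top values in both first full-length arrays. The 5 genes drawn are the tested members that were over 1 higher there than in the later full-length arrays, so their rise follows from the choice. The 2 members over 1 lower there, Slc25a4 and Slc25a24, are not drawn.

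Carriers of cofactors, nucleotides and metals had 11 genes on the array, of which 10 were tested, and 9 of these had a lower value in truncated animals. Their median difference was -0.27. Slc25a39, which supplies the matrix with glutathione, lay at 11.80, 11.80, 10.83 and 10.89 in the truncated arrays, against 12.67, 12.34, 10.95 and 10.97 in the full-length arrays. In both genotypes the first arrays were high, by 0.94 in truncated and 1.54 in full-length mice. Its difference was -0.56 (limma, adjusted p = 0.712), with -0.70 between the first and -0.10 between the later arrays. It was 0.52 without the first full-length arrays.

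Slc25a51, which carries NAD into the matrix, lay at 9.83, 9.68, 9.06 and 9.12 in the truncated arrays, against 10.64, 10.29, 9.32 and 9.37 in the full-length arrays. It followed the same order as Slc25a39, and the groups overlapped. The difference was -0.59 (limma, adjusted p = 0.620), with -0.85 and -1.89 by its other probe sets. It was -0.71 between the first and -0.25 between the later arrays, and 0.22 without the first full-length arrays. Slc25a42, which exchanges coenzyme A, lay at 6.99, 7.16, 6.81 and 6.89 in the truncated arrays, against 7.44, 7.81, 6.81 and 6.92 in the full-length arrays. Its difference was -0.33 (limma, adjusted p = 0.615), and -0.01 between the later arrays, which were nearly level.

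Slc25a32, linked to the supply of folate and FAD, had the reverse layout. It lay at 6.73, 6.89, 6.87 and 6.87 in the truncated arrays, against 7.02, 6.93, 7.52 and 7.74 in the full-length arrays. By this probe set the groups did not overlap, by a small margin, and the later full-length arrays were the high ones. A second usable probe set differed by -0.72, and its groups overlapped. The difference by the brightest probe set was -0.40 (limma, adjusted p = 0.564), with -0.16 between the first and -0.76 between the later arrays.

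The remaining tested genes of cofactor, nucleotide and metal transport differed by -0.31 to 0.31. These ends were Slc25a36, a pyrimidine nucleotide carrier, with -0.31, and Slc25a17, a cofactor carrier of peroxisomes, with 0.31. Slc25a28, or mitoferrin-2, which brings in iron in many cell types, differed by -0.03, with 0.28 between the first and -0.70 between the later arrays. Slc25a33, a further pyrimidine nucleotide carrier, was not tested, and its arrays are given after their values were seen. It lay at 5.30, 4.77, 4.53 and 4.40 in the truncated arrays, against 3.80, 3.78, 4.01 and 4.19 in the full-length arrays. Its arrays did not overlap, at levels near or below the median of the array.

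Slc25a20, which exchanges acylcarnitine for carnitine in fatty acid oxidation, lay at 8.48, 8.47, 8.32 and 8.22 in the truncated arrays, against 7.99, 7.47, 8.29 and 8.38 in the full-length arrays. The first full-length arrays were low and the later ones lay among the truncated values. The difference was 0.39 (limma, adjusted p = 0.520), and -0.06 between the later arrays.

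The last group held carriers related to the uncoupling proteins, a member of the outer membrane and carriers with a less settled role. It had 11 genes, of which 9 were tested, with 2 higher and 7 lower values in truncated animals. Slc25a45 lay at 7.99, 7.80, 7.86 and 7.90 in the truncated arrays, against 6.23, 6.33, 7.22 and 7.30 in the full-length arrays. The truncated arrays were close together and all above the full-length ones. The means were 7.92 ± 0.09 in truncated and 6.59 ± 0.51 in full-length animals, a difference of 1.33 with a standard error of 0.31 (limma, adjusted p = 0.163). It was 0.62 between the later arrays. In limma it passed when array 3 of full-length animal 2 was left out (1.42, adjusted p = 0.0496), or all of that animal (1.69, 0.0357), which leaves 1 full-length animal.

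Slc25a46, a protein of the outer membrane with a part in mitochondrial shape, lay at 8.17, 8.13, 8.19 and 8.09 in the truncated arrays, against 8.93, 8.41, 8.76 and 8.78 in the full-length arrays. By this probe set the groups did not overlap, and the first and later arrays of a genotype did not part. The second probe set differed by -0.54, and its groups overlapped. Its first full-length arrays, at 8.09 and 8.43, lay below the later ones, at 8.83 and 8.89. The difference by the brighter probe set was -0.64 with a standard error of 0.23 (limma, adjusted p = 0.312). It lay between -0.78 and -0.50 in all 21 alternatives, with an adjusted p of 0.0197 to 0.935.

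Slc25a14, related to the uncoupling proteins, lay at 6.03, 6.10, 5.96 and 6.24 in the truncated arrays, against 6.73, 6.30, 6.36 and 6.60 in the full-length arrays. The groups did not overlap, by a small margin. The difference was -0.51 (limma, adjusted p = 0.429), and -0.45 between the first and -0.38 between the later arrays. Slc25a35 was at 5.32 ± 0.04 in truncated and 4.92 ± 0.03 in full-length animals, without overlap of the arrays. The other 5 tested genes of the group, Slc25a30, Slc25a34, Slc25a47, Slc25a48 and Slc25a53, differed by -0.39 to -0.02, and their arrays overlapped. Slc25a30, related to the uncoupling proteins, was lower in the first than in the later arrays of both genotypes, by -0.86 in truncated and -0.997 in full-length mice. The dim genes Slc25a27 and Slc25a54 differed by 0.23 and 0.17 and were not tested.

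Within a genotype, some members varied as much as between genotypes. In full-length mice the first arrays were over 1 higher than the later ones for 5 tested members and over 1 lower for 2. By the brightest probe set of each gene, those higher were Slc25a15, Slc25a38, Slc25a39, Slc25a44 and Slc25a51, and those lower were Slc25a4 and Slc25a24. In truncated mice no tested member parted the first from the later arrays by over 1. In full-length mice these are 14.3% and 5.71% of the members tested, each counted for a single direction. Of all genes tested, 15.5% parted by over 1 in full-length and 5.81% in truncated mice, with both directions counted together. The shares of members in full-length mice, each for a single direction, therefore cannot be set directly beside the 15.5% of all genes. In truncated mice 0% of the members parted in either direction, against 5.81% of all genes.

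Most tested members with several usable probe sets kept their sign across them. Of 20 such members, 17 did, and Slc25a5, Slc25a12 and Slc25a29 did not.

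Other genes of mitochondrial transport gave 0 genes past an adjusted p of 0.05 in any list. The 10 tested transporters of the inner membrane outside the family had 4 higher and 6 lower values and a median difference of -0.13. Tmem14c, which moves a heme precursor, averaged 9.61 ± 0.23 in truncated and 10.50 ± 0.15 in full-length animals (SD, n = 2 each), without overlap of the arrays (limma, adjusted p = 0.208). Its arrays lay at 9.45, 9.71, 9.76 and 9.85 in truncated mice, against 10.61, 11.24, 9.93 and 10.01 in full-length mice, so the gap was wide in the first and narrow in the later arrays. Sfxn5 differed by 0.68. The 3 Vdac genes of the outer membrane channels differed by -0.34 to -0.13. The 13 genes of the import machinery that inserts carriers had a median difference of -0.02, with Tomm20, a receptor of the outer membrane, at -0.65 and Timm9 at -0.47.

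Among the 10 tested enzymes of the citrate and malate-aspartate shuttles, 6 had higher and 4 lower values and the median difference was 0.05. Of the NADP-linked isocitrate dehydrogenase genes, the cytosolic Idh1 was at 8.34 ± 0.11 in truncated and 7.12 ± 0.04 in full-length animals (limma, adjusted p = 0.103). The mitochondrial Idh2 was at 8.76 ± 0.45 in truncated and 7.69 ± 0.11 in full-length animals (limma, adjusted p = 0.211). The aspartate aminotransferases Got1 and Got2, which work with Slc25a12 and Slc25a13, differed by 0.16 and -0.41. The 9 genes of the carnitine shuttle and beta-oxidation had a median difference of -0.05, with Etfdh at -0.28 and Cpt2 at -0.34.

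The 11 enzymes of heme and iron-sulfur cluster synthesis had 8 lower and 3 higher values and a median difference of -0.47. Fech, which puts iron into heme, was at 10.53 ± 0.02 in truncated and 11.43 ± 0.25 in full-length animals (limma, adjusted p = 0.197). Glrx5, which hands on iron-sulfur clusters, differed by -0.80. The family members under other symbols, Mtch1, Mtch2 and Ucp3, differed by 0.32, -0.14 and 0.09. All 15 tested erythroid markers had a lower value in truncated animals, with a median difference of -1.03. The array medians of the erythroid markers were nearly level between the later arrays, but single markers were not. Cldn13 lay there at 5.04 and 4.86 in truncated and 8.38 and 8.40 in full-length mice. Slc4a1 lay there at 8.17 and 8.15 in truncated and 6.99 and 6.93 in full-length mice. Of the enzymes, Fech and Glrx5 were lower in the later truncated arrays, while Alas2 was higher, at 8.40 and 8.35 against 8.11 and 8.14. The part of the erythroid markers was not tested.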

How the data were processed

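Expression was measured on 8 Affymetrix arrays of mouse spleen cells. The authors deposited log2 values per probe set, made with RMA per the submitters' processing notes. Their version is not given in the sources used here, and the range of the values gave the log base. RMA sets all arrays to 1 distribution, so a shift shared by most genes would be removed. Arrays give relative signal, and their number limits the precision.

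Genes were named by the platform annotation. Of 45101 probe sets, 34945 had 1 symbol and 932 had several. All 43 member gene IDs were found in the RefSeq table of GRCm38.p6. Some genes of the family were not analysed here.

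Arrays of an animal were averaged, and 2 truncated animals were tested against 2 full-length animals with limma 3.58.1 in R 4.3.3, with Benjamini-Hochberg adjustment over 11417 genes. SDs are between these animal means, while differences between first or later arrays are means of arrays, with no test. All 8 arrays were given, per role group, for the tested member with the highest mean and the 3 with the smallest p, and the other members by difference, range or count. Other lists had up to 2 genes named by smallest p. The arrays of Slc25a33, Jchain and Nkg7, and the genes Got1, Got2 and Ucp3, were added after their values were seen. So were the later arrays of Cldn13, Slc4a1 and Alas2, and the second probe sets of Slc25a44 and Slc25a32. The fit was tested on simulated data. The members and lists were chosen with earlier results of these data known.

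Arrays with the same animal and array number in both genotypes deviated together from their genotype means, at r = 0.30, 0.14, 0.23 and 0.21. The pairing comes from the numbers in the labels and from these correlations. Fits on 8 arrays with that number as a replicate block treat arrays of an animal as independent. Other alternatives changed the filter, the probe set rule, the centring, the prior and the arrays used.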

Additional observations from a re-analysis of the deposited data

Results flagged for a closer look

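Slc25a32 in truncated mice had 1 array apart from the other 3. The array of animal 1 was at 6.73 log2 units, while the others lay between 6.87 and 6.89. It was 1 of 34 groups of arrays examined among the described members. Chance sets apart about 1 in 20 groups of independent values, but the other 3 arrays here came from animal 2. The array apart cannot be told from a difference between the animals.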

How the results depend on the processing

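No tested member passed an adjusted p of 0.05 in the comparison of animal means, nor after another filter, centring of arrays, a mean over probe sets, or an intensity trend with a robust prior (limma, 0 in each). The settings that gave calls gave them across all genes too, whose share called higher and lower stands beside each count. With 8 arrays and the animal as a random block 2 of 35 members passed with higher values, Slc25a4 and Slc25a13 (2.31% and 0.709% of all genes). With the replicate block 1 passed, Slc25a13 (5.17% and 3.12%), and the block changed no other member's call. With array 1 of each animal alone, 7 higher and 5 lower members of 36 passed (14.7% and 12.3%), and the arrays did not overlap for 9 higher and 15 lower ones (29.1% and 29.4%). Leaving out single animals or arrays gave 0 to 3 higher and 0 to 1 lower calls, 5 to 9 higher and 3 to 15 lower members without overlap, and medians of -0.15 to -0.10. Calls came without full-length animal 2 (3 higher, 1 lower; 3.98% and 1.63%), its array 2 (2 higher; 2.53%) or its array 3 (3 higher; 3.28%). Without an animal, the lone animal of its genotype is assumed to vary like the other genotype. Fewer arrays leave fewer values that can overlap. Without the 2 first full-length arrays, chosen for their erythroid markers, the median was 0.053, and 9 lower and 7 higher members did not overlap (25.2% and 23.2% of all genes). Of 2 alternatives added after seeing the data, a block for array number 1 against 2 and 3 gave 4 higher and 4 lower calls (9.67% and 8.02%), treating arrays of an animal as independent. The later arrays alone, which allow no test, gave 11 higher and 17 lower members without overlap (35.1% and 42.3%). The cause of these shifts was not tested. The 2 animals per genotype limit the precision of every value.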
